A study of Mus musculus with 6 samples.

Results

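Aminoacyl-tRNA synthetases were followed in BV2 cells, an immortalized mouse microglial line, with and without overexpression of PGC-1α, a coactivator of transcription known for its role in mitochondrial biogenesis. The members were genes whose RefSeq mouse symbol names a synthetase, found through the accession of each probe: 36 of the 23462 genes that the arrays could be matched to, read by 66 probes. Of these, 20 encode cytosolic enzymes and 16 mitochondrial enzymes, whose symbols end in 2. The names are those of the RefSeq table used here, so that Nars stands for Nars1 and Eprs for Eprs1. The rule for members used symbols and no measured value, though it was chosen with earlier results of these data known.

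RNA was measured on 6 one-colour Agilent arrays, with 3 control samples and 3 that are labelled PGC-1α overexpression. All 6 samples had received LPS, the bacterial lipopolysaccharide that activates microglia, and the cell culture methods give 500 ng/ml for 6 h for BV2 cells without naming the arrays. According to the methods, overexpression in BV2 cells used a lentivirus with the PGC-1α coding sequence and puromycin selection, and a negative control virus is described, while the array labels say only control. No array of cells without LPS was analysed here, and the labels do not say whether the 3 samples of a group came from separate cultures, so the p-values measure the spread between these samples only.

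Every amino acid is joined to its tRNA by a dedicated synthetase before it can enter a protein. Cytosolic synthetases supply the ribosomes of the cytosol, and 8 of them, among them the bifunctional glutamyl-prolyl enzyme Eprs, are held in a multisynthetase complex by the scaffold proteins Aimp1, Aimp2 and Eef1e1. Mitochondria use enzymes of their own, all encoded in the nucleus, to translate the few proteins of mitochondrial DNA. Kars and Gars each provide the enzyme for both compartments. Mitochondria have no glutaminyl enzyme: Ears2 loads glutamate on the tRNA, and an amidotransferase made by Gatb, Gatc and Qrsl1 converts it.

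A value is the log2 intensity of a gene's brightest tested probe relative to the 75th percentile of its array, and a log2 fold change is overexpression minus control. The brightness of different probes is no measure of which gene is expressed more. A gene passed the test at an adjusted p under 0.05 with limma and Benjamini-Hochberg adjustment over the 17062 genes tested. By this test 36.9% of all genes were higher and 19.6% lower, with a median log2 fold change of 0.23. After quantile normalization 23.1% were higher and 22.3% lower, and the median was 0.03, so part of each rise reported below moves with the scaling. The 75th percentile of the intensity was 1617 to 1893 in control and 856 to 1268 in overexpressing cells. Microglial and macrophage markers were well above background on all 6 arrays for 10 of 12 genes, while Cx3cr1 and P2ry12 were so on none. Of the 10, 4 passed the test as higher and 1, Tmem119, as lower at -2.68. After quantile normalization 0 were higher and 2 lower. Of 16 markers of neurons, astrocytes, oligodendrocytes and fibroblasts, 13 were also well above background on all 6 arrays. Detection thus did not tell the cell types apart. Of these 16 markers, 14 were tested: 8 passed as higher and 2 as lower. After quantile normalization 1 neuron, 2 astrocyte, 1 oligodendrocyte and 2 fibroblast markers were higher, and 1 neuron and 1 fibroblast marker lower. The part of these cell types in the results below was not tested. The 2 probes of Ppargc1a, which encodes PGC-1α, lay near background, between -7.71 and -5.28 on all arrays, and neither was tested, so the label of overexpression was not checked by them.

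The mitochondrial synthetases held the largest changes of the family. Of the 16 mitochondrial genes, all tested, 4 passed the test as lower (Mars2, Pars2, Ears2 and Nars2), 1 as higher (Yars2), and 11 did not pass. The median log2 fold change was 0.09, or -0.14 relative to the median of all genes, and after quantile normalization the counts were again 4 lower and 1 higher with a median of -0.03. The 4 lower genes are read against 19.6% of all genes lower, and the 1 higher gene against 36.9%. Of the cytosolic genes, 19 of 20 were tested: 8 passed as higher, 0 as lower by limma (0 also at an unadjusted p under 0.05), and 11 did not pass, against the same 36.9% of all genes. After quantile normalization only 1 of these cytosolic genes, Nars, was higher and 0 were lower (2 at an unadjusted p under 0.05). The arrays lay on 2 slides, and all 13 called members had the same direction within each slide. This had to be so, since the groups of these members did not overlap, and it is no test of a slide effect. Groups that did not overlap had the overexpression arrays higher in 15 of the 35 tested members and lower in 4, against 42.7% and 22.8% of all genes. In a bulk sample, less RNA per cell and fewer cells that hold the RNA cannot be told apart.

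**Figure D1:**
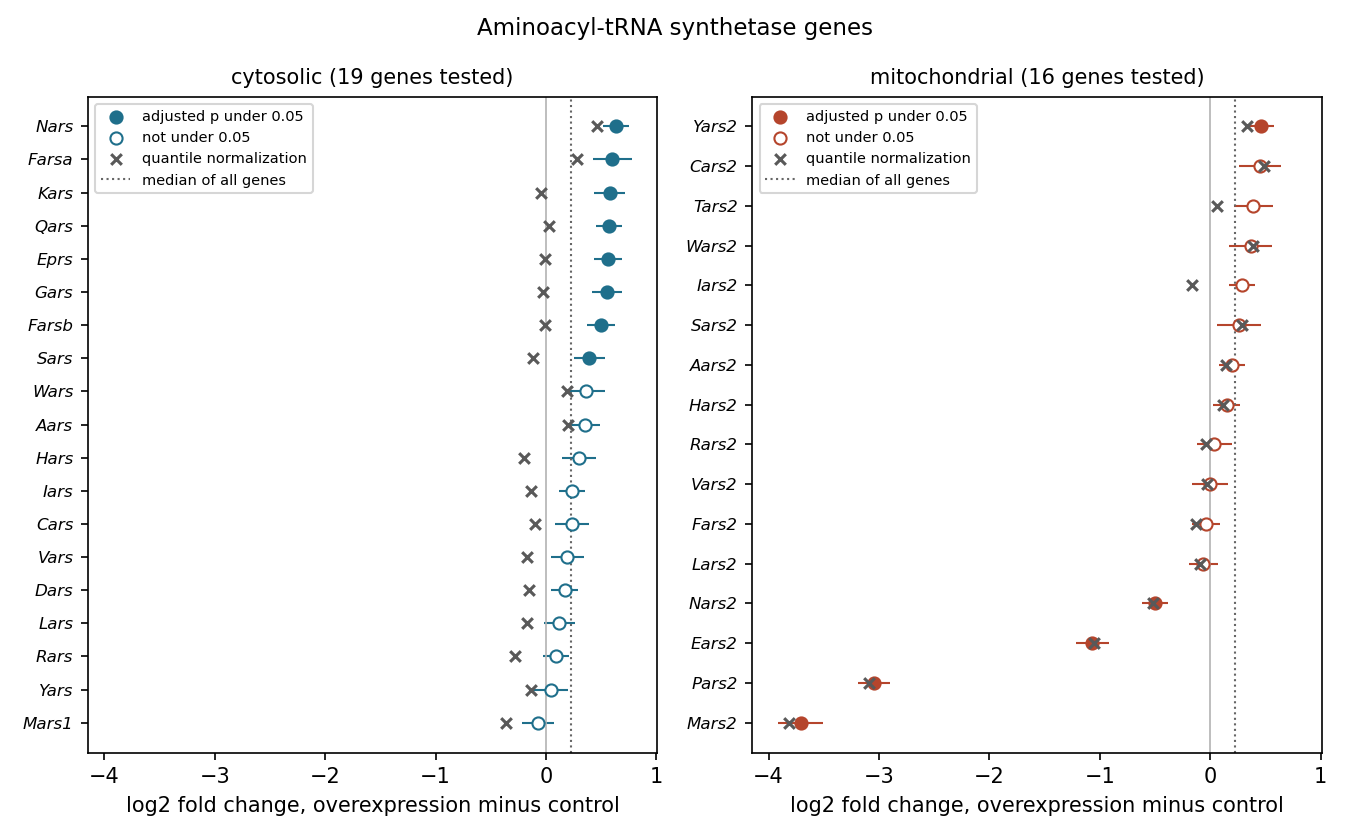
Log2 fold change (overexpression minus control) of each tested synthetase gene, with its standard error as a bar, for cytosolic genes at the left and mitochondrial genes at the right; filled points passed the test, crosses are the values after quantile normalization and the dotted line is the median of all genes, 0.23. Mars2 and Pars2 lie far to the left of all other members under both scalings, whereas most cytosolic rises move to about 0 after quantile normalization, with Nars still at 0.46.

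Mars2, the mitochondrial methionyl-tRNA synthetase, fell most. Its values were -1.31, -1.51 and -1.49 in control and -5.59, -5.06 and -4.78 in overexpressing cells. The highest overexpression array thus lay far below the lowest control array, and the probe stayed well above background on all 6. The log2 fold change was -3.71 ± 0.20 (SE), or 13.1-fold lower, with an adjusted p of 2.61e-05 by limma, and after quantile normalization it was -3.81. With normexp background correction the fall was smaller, -2.22 (4.67-fold lower), or -2.43 (5.37-fold lower) when quantile normalization followed. Among all 17062 genes it ranked 8th from the lowest. Mars2 was read by 1 probe only, as were Nars and Nars2, so no second probe checked their changes.

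Pars2, which loads proline in mitochondria, was next. The control arrays gave -0.50, -0.63 and -0.45 and the overexpression arrays -3.73, -3.65 and -3.34, all 6 well above background. The groups stood apart, and the log2 fold change of -3.05 ± 0.14 (SE) was 8.25-fold lower with an adjusted p of 2.07e-05 by limma. It ranked 35th from the lowest of all genes. The log2 fold change was -2.42 (5.33-fold lower) with normexp and -2.21 (4.64-fold lower) with the mean of both probes. A second, dimmer Pars2 probe fell by 1.38 on the log2 scale, with values of -3.70, -4.04 and -3.65 in control and -5.28, -5.03 and -5.22 in overexpressing cells. Both probes went the same way without overlap, with changes of different size.

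Ears2 starts the indirect route to mitochondrial glutaminyl-tRNA. Its brightest probe gave -0.77, -0.99 and -1.16 in control and -1.96, -1.95 and -2.20 in overexpressing cells. Every overexpression array was below every control array, at a log2 fold change of -1.07 ± 0.15 (SE) with an adjusted p of 0.0010 by limma. Of 4 Ears2 probes, 3 were tested and all 3 had negative log2 fold changes, -1.07, -1.17 and -0.74, the last without passing the test. The genes of the amidotransferase that completes the route differed among themselves: Gatc fell by 0.38 with an adjusted p of 0.049 by limma, Qrsl1 had a log2 fold change of -0.26 that did not pass, and Gatb rose by 0.48 with an adjusted p of 0.046. Gatc was also lower after quantile normalization, at -0.40, whereas Gatb then had 0.09 and did not pass.

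Nars2, the mitochondrial asparaginyl enzyme, was the smallest of the 4 falls. Its values were 0.56, 0.55 and 0.65 in control and 0.02, 0.17 and 0.06 in overexpressing cells, a log2 fold change of -0.50 ± 0.12 (SE) with an adjusted p of 0.0080 by limma. Again no overexpression array reached the control range.

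Yars2, which loads tyrosine, was the 1 mitochondrial gene that rose. It had 0.97, 0.91 and 1.1 in control and 1.43, 1.54 and 1.39 in overexpressing cells, a log2 fold change of 0.46 ± 0.12 (SE) with an adjusted p of 0.013 by limma, and 0.33 after quantile normalization. The groups did not overlap, but a second Yars2 probe had 0.13 and did not pass, and with median scaling, with normexp and quantile normalization, with the mean of both probes or without the second control array the gene itself did not pass.

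At the other end, Vars2 (valine) had 0.66, 0.31 and 0.29 in control and 0.30, 0.68 and 0.27 in overexpressing cells, a log2 fold change of -0.00. Rars2 (arginine) had 0.86, 0.92 and 0.71 against 0.77, 1.16 and 0.67, a log2 fold change of 0.04. In both genes the ranges of the groups overlapped. The other mitochondrial members that did not pass were Lars2 at -0.06, Fars2 at -0.04, Hars2 at 0.15, Aars2 at 0.20, Sars2 at 0.26, Iars2 at 0.29, Wars2 at 0.37, Tars2 at 0.39 and Cars2 at 0.45 on the log2 fold change scale. These 9 genes load leucine, phenylalanine, histidine, alanine, serine, isoleucine, tryptophan, threonine and cysteine.

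**Figure D2:**
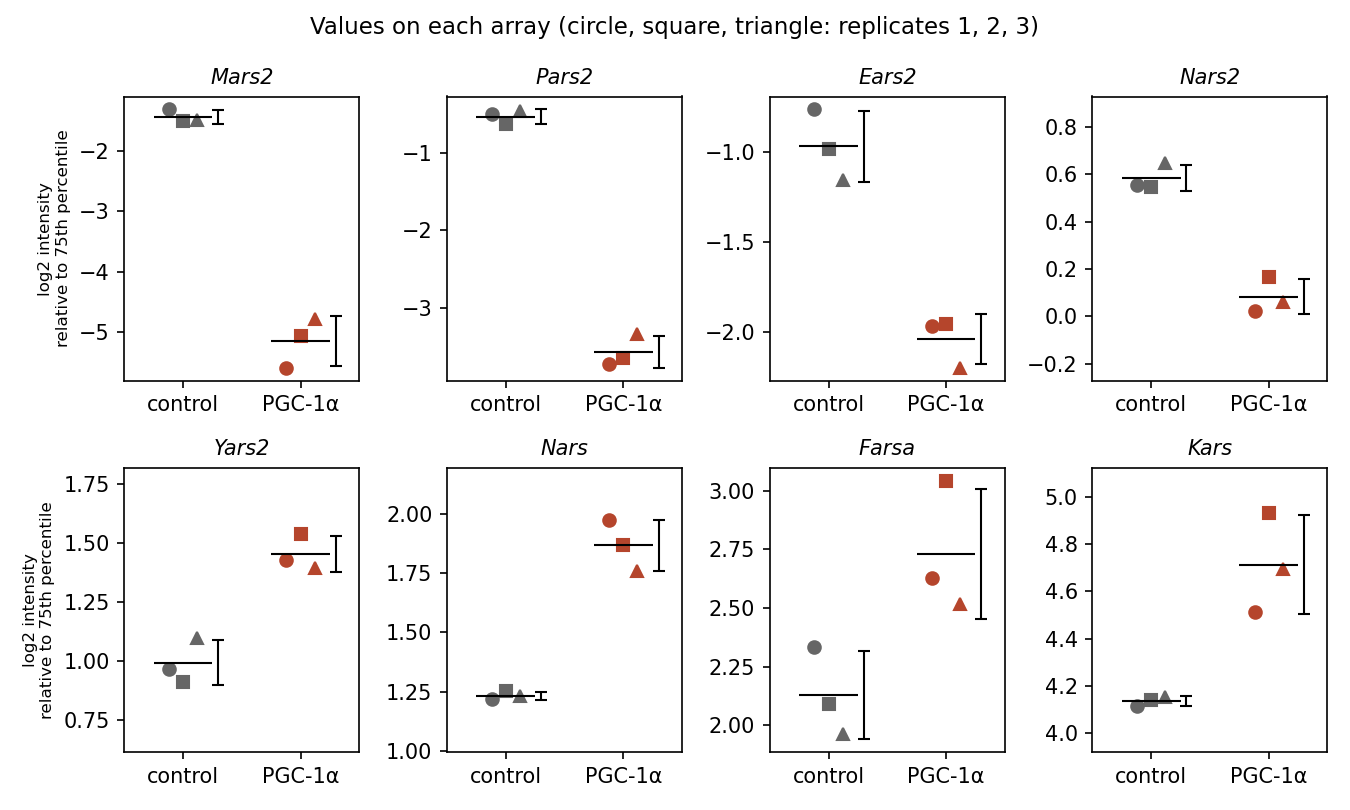
Log2 intensity relative to the 75th percentile of each array for 8 synthetase genes, each with its own axis; points are arrays, horizontal lines are group means and bars are SDs (n = 3). In all 8 genes the control and overexpression arrays do not overlap, with Mars2 at -1.51 to -1.31 in control and -5.59 to -4.78 in overexpressing cells and Nars at 1.22 to 1.25 against 1.76 to 1.97.

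Among the cytosolic genes Nars, which loads asparagine, rose most. Its values were 1.22, 1.25 and 1.23 in control and 1.97, 1.87 and 1.76 in overexpressing cells. The control arrays were tightly grouped and all overexpression arrays lay above them, at a log2 fold change of 0.63 ± 0.12 (SE), or 1.55-fold, with an adjusted p of 0.0034 by limma. The rise held after quantile normalization at 0.46 with an adjusted p of 0.011 by limma. Nars thus rose while its mitochondrial counterpart Nars2 fell under both scalings.

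The other 7 cytosolic rises did not pass after quantile normalization. Farsa, the catalytic subunit of the phenylalanyl enzyme, had 2.33, 2.09 and 1.96 in control and 2.63, 3.04 and 2.52 in overexpressing cells, a log2 fold change of 0.60 ± 0.17 (SE) with an adjusted p of 0.019 by limma, and 0.28 after quantile normalization, which did not pass. Kars (lysine) had 4.11, 4.14 and 4.15 against 4.51, 4.93 and 4.69, a log2 fold change of 0.58 ± 0.14 (SE), and -0.04 after quantile normalization. Qars (glutamine) had 3.61, 3.61 and 3.57 against 4.15, 4.30 and 4.06, a log2 fold change of 0.57 ± 0.12 (SE), and 0.02 after quantile normalization. Relative to the 75th percentile none of these groups overlapped. Eprs at 0.56, Gars (glycine) at 0.55, Farsb, the other phenylalanyl subunit, at 0.50 and Sars (serine) at 0.39 also passed, and after quantile normalization their log2 fold changes were -0.00, -0.03, -0.00 and -0.12, with none passing.

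Bright probes of all genes moved with the scaling in the same way. Of the 2586 genes with a control value of at least 2, 1432 passed as higher, and their median log2 fold change was 0.42, or -0.04 after quantile normalization. The 15 cytosolic synthetases in that range had 7 higher genes and a median of 0.30, or -0.12 after quantile normalization. Only 2 of the mitochondrial genes, Iars2 and Tars2, lay in that range.

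Mars1, the cytosolic methionyl enzyme, had 2.23, 2.33 and 2.33 in control and 1.97, 2.44 and 2.27 in overexpressing cells, a log2 fold change of -0.07 that did not pass. The brightest probe of Yars (tyrosine) had values on 2 control arrays only, 1.75 and 1.70, against 1.62, 1.94 and 1.75, a log2 fold change of 0.05. In both genes the groups overlapped. The remaining cytosolic members without a call were Rars (arginine) at 0.09, Lars (leucine) at 0.12, Dars (aspartate) at 0.17, Vars (valine) at 0.19, Cars (cysteine) at 0.24, Iars (isoleucine) at 0.24, Hars (histidine) at 0.30, Aars (alanine) at 0.36 and Wars (tryptophan) at 0.37 on the log2 fold change scale. Lars and Aars each lacked 1 control array. Tars (threonine) was not tested, since an outlier spot on 1 array of each group left it with 1.80 and 1.79 in control and 2.04 and 2.05 in overexpressing cells.

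By structure, the cytosolic calls were uneven in count, which is given as a description. Of the 9 tested enzymes of class II, the family whose catalytic core is built on an antiparallel sheet, 6 were higher with a median log2 fold change of 0.50. Of the 9 class I enzymes, built on a nucleotide-binding fold, 1 was higher (Qars) with a median of 0.19. Both counts stand beside 36.9% of all genes. After quantile normalization 1 class II gene and 0 class I genes were higher, and the medians were -0.03 and -0.14. The class II probes were also brighter, with a median control value of 3.30 against 2.42 for class I. Whether the counts go with the class or with the brightness was not tested. Within the multisynthetase complex 3 of 8 genes were higher (Kars, Qars and Eprs), and outside it 5 of 11, each beside 36.9% of all genes.

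The compartments were set against each other within each array, where a common scaling factor cancels but the effect of quantile normalization, which changes bright and dim probes differently, does not. In 16 pairs of a cytosolic and a mitochondrial gene for the same amino acid, the difference in log2 fold change was positive (cytosolic above mitochondrial) in 12, and in 8 pairs the within-array differences of the groups did not overlap, 7 of them positive. After quantile normalization 8 of the 16 differences were positive and 8 negative, so the direction over all pairs depends on the scaling. Sars against Sars2 went from 0.13 to -0.40 and Hars against Hars2 from 0.15 to -0.32, with Cars, Lars, Rars, Vars, Wars and Yars also below 0 against their mitochondrial genes. The pairs share genes where an enzyme serves in more than 1 of them. For the number of pairs without overlap no share among other pairs of genes was computed. Among single genes 42.7% lay higher and 22.8% lower without overlap, so that number is given as a description. Mars1 against Mars2 differed by 3.64 ± 0.19 (SE) and Eprs against Pars2 by 3.61 ± 0.22 (SE). Eprs against Ears2 differed by 1.63 ± 0.14 (SE) and Nars against Nars2 by 1.13 ± 0.09 (SE). In these 4 pairs the mitochondrial gene was the one that fell, and after quantile normalization the 4 pairs differed by 3.45, 3.09, 1.05 and 0.98 in the same order. For each of the 8 pairs without overlap the exact permutation test, two-sided, gave p = 0.1, which is the smallest that 3 arrays against 3, or 2 against 3, allow. With 3 arrays against 3 this value follows from the lack of overlap and adds nothing to it.

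The smaller differences were Farsa against Fars2 at 0.64 ± 0.26 (SE), Farsb against Fars2 at 0.54 ± 0.12 (SE) and Aars against Aars2 at 0.14 ± 0.04 (SE), the last on 2 control arrays. After quantile normalization these were 0.41, 0.12 and 0.03. Yars against Yars2 was the 1 pair with the mitochondrial gene above and no overlap, at -0.37 ± 0.10 (SE), or -0.43 after quantile normalization. It turned positive with normexp background correction (0.25, or 0.19 with quantile normalization), with the mean of probes (0.11) and without control array 1 or 3 (0.24 and 0.11). Without control array 1 or 3 the second Yars probe stood for the gene, since the brightest then had 1 control value only. Wars against Wars2 and Iars against Iars2 were near 0, at -0.00 and -0.05.

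**Figure D3:**
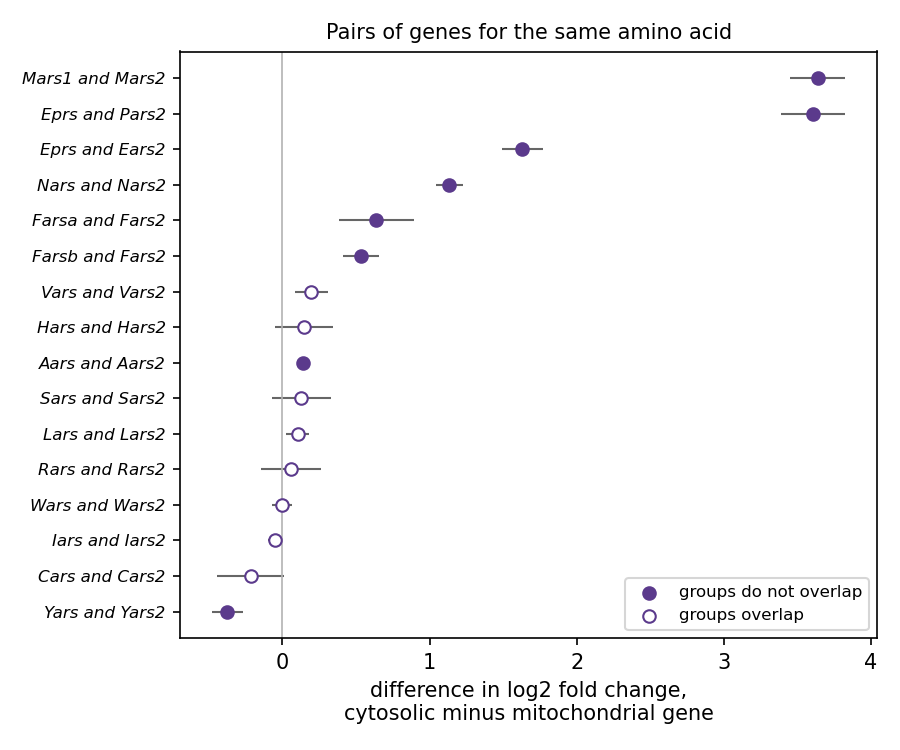
Difference in log2 fold change between the cytosolic and the mitochondrial gene for the same amino acid, from within-array differences, with standard errors as bars (3 arrays a group, or 2 control arrays for Aars, Lars and Yars). Filled points mark pairs whose groups do not overlap; the pairs with Mars2 and Pars2 lie above 3.6 and Yars and Yars2 at -0.37, whereas after quantile normalization (not plotted) 8 of the 16 differences are negative.

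Probes of 1 gene did not always move together. Of the members, 20 had several tested probes, and in 0 of them did probes pass as higher and others as lower, as fitted by limma over all probes, where 31.4% were higher and 21.3% lower. The 3 genes that follow were chosen after their values were seen. Hars2 was represented by a probe at 0.15 that did not pass, while its 2 dimmer probes fell by 0.56 and 0.62 on the log2 scale, with -1.0, -1.14 and -1.05 against -1.68, -1.60 and -1.59 for the first of them. The dimmer Wars2 probe fell by 1.00, from -3.92, -3.75 and -3.76 to -4.64, -5.08 and -4.74, whereas the brighter one had 0.37 without passing. The second Yars probe rose by 0.67, from 1.44, 1.46 and 1.31 to 2.04, 2.27 and 1.91, against 0.05 for the brightest. In each case the groups of the dimmer probe did not overlap. Without passing, probes also differed in sign for Wars (0.37 and -0.27), Cars (0.24 and -0.26), Cars2 (0.45 and -0.13) and Fars2 (0.43 and -0.04), among others. The 4 Eprs probes lay together between 0.40 and 0.59.

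**Figure D4:**
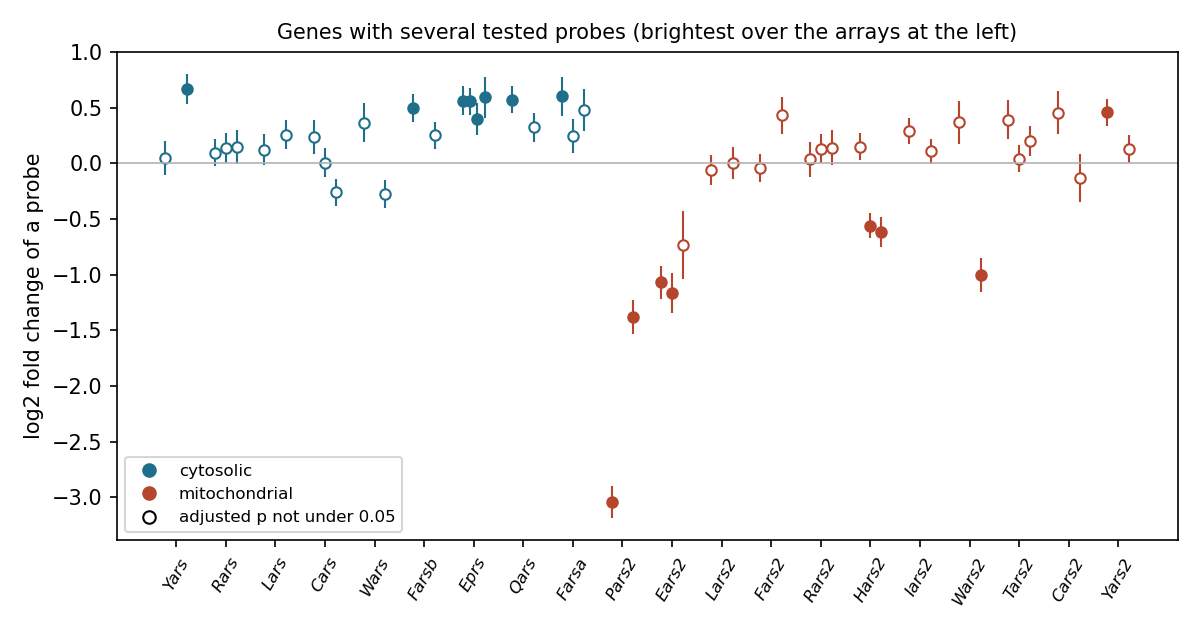
Log2 fold change of each tested probe, with its standard error, for the 20 synthetase genes with several tested probes; the leftmost probe of each gene is the brightest and stands for it, and filled points passed the test over all probes. The Eprs probes cluster between 0.40 and 0.59, whereas the Hars2, Wars2 and Yars probes lie apart by more than their errors, as do those of Pars2, Wars and Cars among others.

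Promoters are shown for Mars2, the largest fall, and for the cytosolic genes Gars and Kars, since known binding motifs could be read in them. Gars and Kars were not the largest rises, and after quantile normalization they had -0.03 and -0.04. RefSeq promoters of GRCm38.p6, 250 bases before to 50 after the start of transcription, were found for 27 of the 36 members. The stretch for Mars2 lies at chr1:55236927-55237226 on the plus strand, that for Gars at chr6:55037751-55038050 on the plus strand and that for Kars at chr8:112011305-112011604 on the minus strand. Capitals mark matches to TGATGNAA, the element bound by C/EBP-ATF dimers such as those of ATF4, to the palindromic NRF-1 site (GCGCA, any base, GCGC), and to CCGGAAG, a core bound by ETS factors such as NRF-2, each on either strand.
Mars2: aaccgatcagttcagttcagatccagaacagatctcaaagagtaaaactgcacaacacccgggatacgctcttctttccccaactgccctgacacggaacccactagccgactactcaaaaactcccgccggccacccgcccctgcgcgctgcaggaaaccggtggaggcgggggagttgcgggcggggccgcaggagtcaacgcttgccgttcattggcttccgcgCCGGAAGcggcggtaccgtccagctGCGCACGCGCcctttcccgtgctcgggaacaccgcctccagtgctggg
Gars: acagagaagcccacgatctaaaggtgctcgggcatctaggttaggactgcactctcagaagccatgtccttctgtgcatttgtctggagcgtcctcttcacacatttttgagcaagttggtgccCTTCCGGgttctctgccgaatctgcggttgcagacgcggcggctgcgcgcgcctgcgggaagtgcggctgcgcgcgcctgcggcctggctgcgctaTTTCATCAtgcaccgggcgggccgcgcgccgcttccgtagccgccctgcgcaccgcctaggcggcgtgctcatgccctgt
Kars: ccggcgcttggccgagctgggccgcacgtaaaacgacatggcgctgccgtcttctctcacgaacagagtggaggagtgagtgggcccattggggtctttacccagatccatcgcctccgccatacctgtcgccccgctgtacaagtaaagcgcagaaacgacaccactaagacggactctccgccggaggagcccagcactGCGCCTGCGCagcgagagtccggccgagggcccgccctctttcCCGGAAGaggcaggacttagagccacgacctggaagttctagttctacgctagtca

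The Mars2 promoter held an ETS match starting at base -23 and an NRF-1 match at base 3 from the start site, with no TGATGNAA. The Gars promoter held TGATGNAA on the reverse strand at base -30 and an ETS match at -126, and the Kars promoter an NRF-1 match at -49 and an ETS match at -6. Over the 27 members, TGATGNAA occurred in 5, all cytosolic (Aars, Gars, Iars, Tars and Yars), where 4.51% of all genes with a RefSeq promoter of this length held it. Of these 5, Gars alone passed the test as higher, with Aars, Iars and Yars not passing and Tars untested. NRF-1 matches occurred in 5 members (Farsb, Iars2, Kars, Mars2 and Tars) against 5.19% of all such genes, and ETS matches in 9 against 9.93%. AAGGTCA, the site of estrogen-related receptors, was in 0 of the members' windows, against 5.38% of all such genes. A match is a description of the letters and not a site of binding.

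Of 23 partner genes of tRNA charging and maturation, 21 were tested, 2 rose and 4 fell, beside 36.9% of all genes higher and 19.6% lower, with a median log2 fold change of -0.05. After quantile normalization 0 rose by limma (1 at an unadjusted p under 0.05) and 8 fell, beside 23.1% and 22.3% of all genes. Aimp1, the scaffold that holds the complex and also gives rise to a cytokine, rose by 0.76 ± 0.11 (SE) with an adjusted p of 0.0015 by limma and had 0.25 after quantile normalization, which did not pass. Aimp2 had -0.27, which did not pass, and -0.51 after quantile normalization, which did. Eef1e1 had 0.29 and did not pass. Mtfmt, which formylates the methionine on the mitochondrial initiator tRNA loaded by Mars2, fell by 0.75 ± 0.24 (SE) with an adjusted p of 0.028 by limma. Prorp, the nuclease subunit of mitochondrial RNase P, fell by 0.63 ± 0.12 (SE) with an adjusted p of 0.0038, and the falls of Mtfmt and Prorp held after quantile normalization at -0.74 and -0.64. Tarsl2, a second cytosolic threonyl enzyme, was well above background on 1 array and was not tested.

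Cytosolic synthetases are known to be induced with other ATF4 targets when amino acids run short, so 22 genes of that response were read beside them. Of the 21 tested, 10 rose and 1 fell, beside 36.9% and 19.6% of all genes, with a median log2 fold change of 0.32. After quantile normalization 5 rose and 2 fell, beside 23.1% and 22.3% of all genes, with a median of -0.01. Slc7a11, the cystine importer, rose by 1.61 ± 0.13 (SE), and Ddit3, which encodes the stress factor CHOP, by 1.19 ± 0.14 (SE), and both also rose after quantile normalization, by 1.56 and 0.70. Chac1, which degrades glutathione, fell by 3.11 ± 0.19 (SE), with -3.22 after quantile normalization. Atf4 itself had 0.26 and Asns, which makes the asparagine that Nars loads, had 0.21, and neither passed; these 2 genes were named after their values were seen.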

How the data were processed

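RNA of 3 control and 3 PGC-1α-overexpressing BV2 samples, all with LPS, was measured on Agilent one-colour arrays. Groups and replicates were taken from the sample labels. The arrays were also assigned to 2 slides, which the sample titles do not name. The authors deposited intensity values of the green channel, from which Agilent Feature Extraction had subtracted the background, without normalization between arrays. A deposited table of log2 values covers some of the probes. These came from GeneSpring by a procedure that is not given in the sources used here, and served as an alternative. Each column correlated with its own array at 0.9988 or more across probes. The dye is Cy3 in the labels but Cy5 in the methods.

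Here, log2 intensity was taken minus the 75th percentile of each array over 59305 spots other than controls. Outlier spots were dropped and repeated spots averaged. Of 56605 probes, 33767 matched a RefSeq gene (GRCm38.p6) through their accession. A probe entered the test with values on 2 or more arrays per group, if all 3 arrays of either group had it well above background. Each gene was read by its brightest such probe, by the mean over the arrays, chosen anew in each alternative except the mean of probes. limma 3.58.1 (lmFit and eBayes, under R 4.3.3) gave two-sided p-values, which were adjusted by Benjamini-Hochberg over 17062 genes. Differences between paired genes were taken within arrays and compared by an exact permutation test. The steps were tested on simulated data. Tables and plots used Python 3.11.15, pandas 2.3.3 and matplotlib 3.10.9. Precision is limited by the small number of arrays.

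The rule finds 37 genes; 1 is not reported here and enters no count or median of the members, though it stays among all genes tested. Every other member is named, with array values for the 4 largest rises and falls past the threshold and the 2 smallest changes of each compartment, and for others where stated. Of the lists, complex and amidotransferase genes, Tarsl2 and the 3 largest changes past the threshold are named. The members and lists were chosen with earlier results of these data known. Alternatives were other scalings, background correction by normexp (offset 50), other filters, the mean of probes, blocks by slide or by replicate number, a variance trend, the authors' values and each array left out.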

Additional observations from a re-analysis of the deposited data

How the results depend on the processing

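The calls of Mars2, Pars2, Ears2, Nars2 and Nars held in all 17 alternatives run. The number of lower mitochondrial genes was 4 in each of them, except 6 with the mean of probes. Higher mitochondrial genes numbered 0 with median scaling or the mean of probes, 2 with normexp and the 75th percentile, 3 with the slide as a block and 4 with a variance trend. They ranged from 0 (without the second control array) to 2 (without the third overexpression array) when 1 array was left out. Higher cytosolic genes numbered 1 after quantile normalization or with the authors' values and 2 with normexp and quantile normalization, which also gave 2 lower ones, Cars and Mars1. The Cars call there may rest on another probe than the one used above. The cytosolic median log2 fold change was -0.10 after quantile normalization, -0.032 with normexp before it, -0.082 with the authors' values and 0.205 with median scaling, and with 1 array left out it ranged from 0.23 (without the second overexpression array) to 0.475 (without the first control array). Leaving out any array but the first control array ended the call of Sars (0.30 to 0.44), leaving out control array 2 or 3 that of Farsa (0.58 and 0.52), and leaving out control array 2 that of Yars2 (0.42). With the mean of probes Eprs (0.35) and Farsa (0.44) did not pass, and neither did Sars with median scaling (0.28) or with no filter on dim probes (0.39). The Eprs value lay below each of its 4 probes (0.40 to 0.59). The dimmest of them had no value on the second control array, so this lost call is no measure of disagreement between probes. Yars passed without control array 1 or 3 (0.68 and 0.62). Its brightest probe then kept 1 control value only and was not tested. Its second probe, which rose by 0.67 over all arrays, stood for the gene, so this is a change of probe. Cars2 passed without the third overexpression array (0.61). The mitochondrial median kept within the spread between replicates in these alternatives. The partner list had 0 higher and 8 lower genes, and the amino acid response list 5 higher, under quantile normalization, with or without normexp, and with the authors' values. The latter list had 2 lower genes, or 4 with normexp.

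After quantile normalization 15 members had the other sign, 10 of which passed in neither setting, among them Hars (-0.20), Iars2 (-0.16) and Iars (-0.14). Among members called in at least 1 of the settings compared, signs turned for Sars (-0.12, then -0.0316 with normexp before it and -0.112 with the authors' values) and, in the same order, for Farsb (-0.00463, -0.069, -0.00494), Gars (-0.0285, -0.0161, -0.0206) and Kars (-0.0448, -0.00361, -0.0318), for Eprs (-0.00494) after quantile normalization, for Cars (-0.53) with normexp and quantile normalization, and for Hars2 (-0.34) and Wars2 (-0.32) with the mean of probes. The cause was not tested.

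The replicate numbers were not shown to pair the samples: same-numbered arrays correlated in their deviations at -0.16, 0.07 and 0.60. The 0.60 of replicate 3 was the highest correlation between arrays of the 2 groups, and these arrays alone lay on slide 2. Deviations from means of 3 arrays cannot settle whether the samples were paired. With the replicate block, higher mitochondrial genes numbered 2, higher cytosolic genes 8 and lower mitochondrial genes 4. Adding probes through a gene name column was not run, since the files used hold no such column.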
